A study of Mus musculus with 6 samples.

Results

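Transcripts of the enzymes that attach ubiquitin to proteins and take it off again were compared between livers of Atp7b knockout and wild-type mice. They were chosen by gene symbol alone: every probe set with a single symbol that starts with Ube2, Ube3, Otud or Uchl, or with Usp, Uba or Cul followed by a digit. This gave 111 of the 11811 probe sets in the deposited table, for 64 of the 7164 genes with such a symbol. The samples were 6 preparations of total liver RNA, each on 1 Affymetrix array: 3 from mice labelled ATP7B KO (KO903, KO904 and KO905) and 3 from mice labelled wild type (WT4, WT5 and WT6). Atp7b encodes a copper-transporting ATPase of the hepatocyte, and people who lack its function have Wilson disease, in which copper builds up in the liver; the series title places the samples early in copper accumulation. Strain, age, sex, diet and time of sampling are not given in the sources used here, and no label says outright that the 3 samples of a group are 3 animals. The p-values therefore reflect how far these samples differ among themselves, which may in part be technical. The question is which enzymes of each class differ in transcript level without Atp7b.

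Ubiquitin is a small protein that is joined to other proteins in a relay. An activating enzyme (E1) charges it, a conjugating enzyme (E2, the Ube2 genes) carries it, and a ligase (E3) such as a HECT enzyme (the Ube3 genes) or a cullin complex (the Cul genes) chooses the target. Deubiquitinases of the USP, OTU and UCH families reverse the step. The fate of the target depends on the chain: some chains send proteins to the proteasome, others direct membrane sorting, DNA repair or signalling. A few enzymes of the same families handle NEDD8 or ISG15, which resemble ubiquitin.

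The arrays were alike in scale, with median signals of 330.8 to 342.8. The 7 hepatocyte markers summed to 112114 to 127880 in the knockout and 117630 to 143531 in wild type, with 2 of 7 log2 differences above 0 and a median of -0.08. None passed in limma (1 at an unadjusted p under 0.05, Tat, with log2 -0.42 and adjusted p = 0.0803). The Kupffer cell and macrophage markers summed to 6517 to 8704 in the knockout and 4609 to 6494 in wild type. By their brightest probe sets 10 of 10 tested markers had log2 differences above 0, with a median of 0.35. None passed the test, and 5 had an unadjusted p under 0.05 (17.9% over all probe sets). A second probe set of Csf1r had a log2 difference of -0.31. Endothelial markers summed to 3112 to 3825 and 2600 to 3007, with 7 of 8 above 0 and none passing. Among them 4 had an unadjusted p under 0.05, of which Lyve1 was below 0 (log2 -0.56). The erythroid gene Alas2 rose (log2 0.999, limma adjusted p = 0.00183). The part of these shifts in the results below was not tested, and in bulk RNA fewer cells of a type and less RNA per cell cannot be told apart. Atp7b itself did not pass (log2 -0.27, adjusted p = 0.407); where its probe set lies relative to the disruption was not examined, so it checks no label. The copper-binding metallothioneins Mt1 and Mt2 rose (log2 1.14 and 1.52, adjusted p = 0.000747 and 0.000341).

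Most of these enzymes did not pass the test. Of the 111 probe sets, 103 (62 genes) had a mean MAS 5.0 signal of at least 100 and were tested on log2(signal + 16), a scale that understates the change of low signals. At a limma adjusted p under 0.05, 1 of the 103 was higher in the knockout (Usp14) and 2 were lower (Usp2 and Ube2d3). Over all 10620 tested probe sets the shares were 2.05% higher and 2.09% lower, together 4.14%, against 2.91% of these enzymes. At an unadjusted p under 0.05 there were 15 of 103 (14.6%), with 17.9% over all probe sets. The 3 knockout signals lay apart from the 3 wild-type signals in 18 of 103 (17.5%), with 23.6% over all: 9 above (13.2% over all) and 9 below (10.4% over all). The 95% interval of the difference lay within a 1.5-fold change either way for 83 of 103 (80.6%), with 65.2% over all. Of the 103 log2 differences, 47 (45.6%) were above 0, with 54.6% over all, and the median was -0.04, with 0.03 over all. The enzymes' median signal (361) was close to that of all tested probe sets (387.4), as was the median spread within groups (SD of log2 signal, 0.17 and 0.18).

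**Figure D1:**
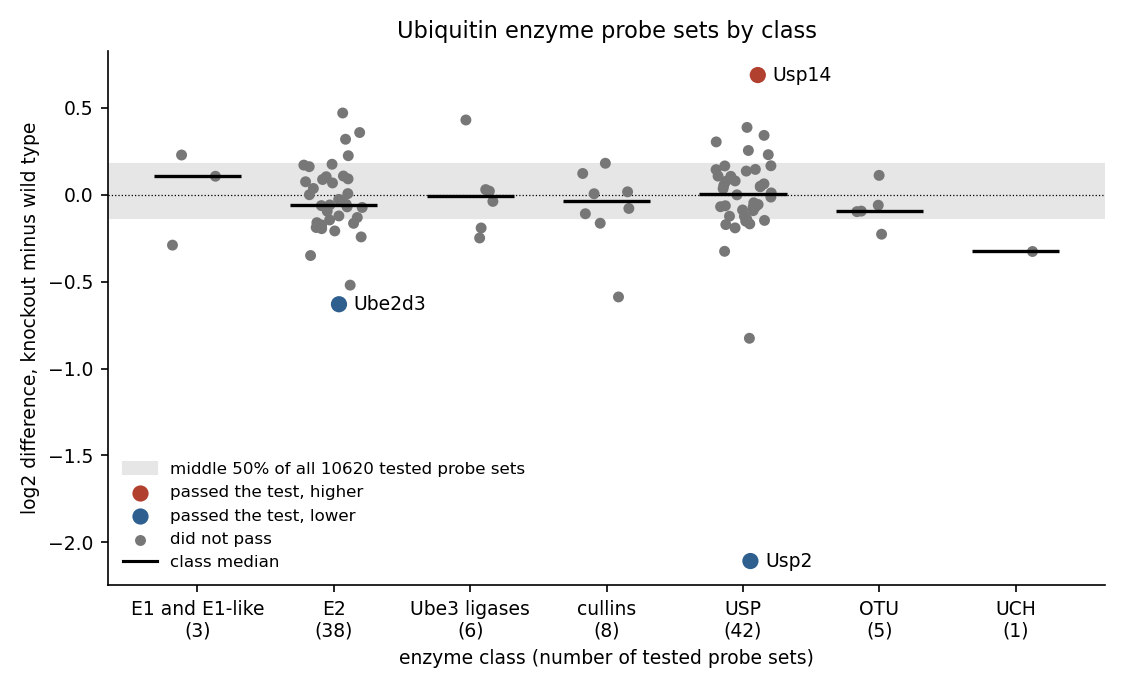
Log2 difference (knockout minus wild type) of each tested probe set by enzyme class, with the number tested under each class. Points are probe sets, black lines class medians, the grey band the middle 50% of all 10620 tested probe sets; Usp2, Usp14 and 1 probe set of Ube2d3 passed the test, and Usp2 lies farthest from 0 at -2.11.

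The largest difference was in Usp2, a deubiquitinase whose transcript is known to follow the daily clock in liver and whose known targets include Mdm2 and clock proteins. On probe set 1417168_a_at its signal was 227, 299 and 205 in KO903, KO904 and KO905, and 1102.5, 868 and 1358 in WT4, WT5 and WT6. Every knockout value was under every wild-type value by a wide margin. The mean fell from 1109 ± 245 to 244 ± 48.8 (SD, n = 3 each), a 4.31-fold decrease (log2 -2.11 ± 0.18, SE; adjusted p = 0.000152). This call held when any of the 6 arrays was left out, with log2 differences from -2.27 to -1.95 (adjusted p up to 0.00124).

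A second probe set of Usp2 gave another picture. On 1417169_at the knockout signals were 189.5, 1124.5 and 751 in KO903, KO904 and KO905, and the wild-type signals 913, 806.5 and 1295. Only KO903 was far below wild type, KO904 lay inside the wild-type range and KO905 just under it. The log2 difference was -0.83 ± 0.48 (SE; adjusted p = 0.406), and -0.10 without KO903. The mean of both probe sets, an alternative added after seeing the data, was lower in the knockout by the test (log2 -1.47, adjusted p = 0.0191). In Affymetrix naming the suffix _a_at marks a probe set that matches several transcripts of 1 gene, _s_at one shared between genes, and _x_at one with probes that may match other sequences; which Usp2 transcripts each probe set reads was not examined.

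**Figure D2:**
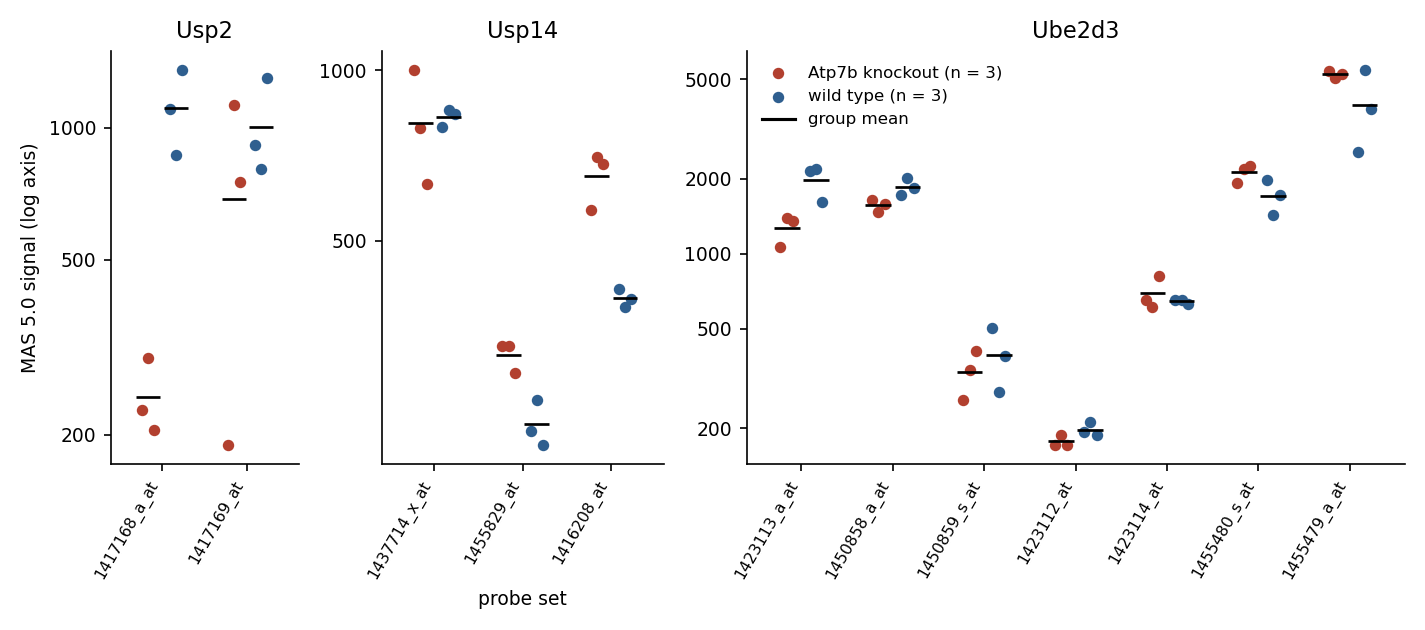
MAS 5.0 signal (log axis) of every tested probe set of Usp2, Usp14 and Ube2d3, with 1 point per array (3 knockout, 3 wild type) and black lines at the group means. The groups are apart on 1 of 2 probe sets of Usp2, 2 of 3 of Usp14 and 2 of 7 of Ube2d3.

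Because Usp2 is a clock output gene in liver, a list of 18 clock and clock output genes was read beside it. The 10 of these with a probe set in the deposited data summed to 5133 to 6097 in the knockouts and 7647 to 9509.6 in wild type. Of 9 tested, 2 fell and none rose, with 2.09% lower and 2.05% higher over all probe sets. At an unadjusted p under 0.05 there were 8 (17.9% over all), of which Clock and Nr1d1 were above 0. The median log2 difference was -0.53. Dbp and Tef, PAR bZIP transcription factors of the clock output, passed. Dbp stood at 435, 715 and 456 in the knockouts and 1403, 1343 and 1797 in wild type (log2 -1.50 ± 0.19, adjusted p = 0.00162), and its second probe set also fell (log2 -1.42, adjusted p = 0.00372). Tef stood at 1232, 1633 and 1292 against 2235, 1997 and 2387 (log2 -0.67 ± 0.13, adjusted p = 0.0176). The third PAR bZIP gene, Hlf, had a log2 difference of -0.61 (adjusted p = 0.124), and the period gene Per1 one of -0.95 (adjusted p = 0.0675). Clock, whose product drives this arm of the rhythm, had the opposite sign (0.56, adjusted p = 0.112), as did Nr1d1 (0.31, adjusted p = 0.195). KO904 had the highest knockout signal of Usp2, of Dbp and of Tef. With no time of sampling in the labels, genotype and hour of sampling cannot be told apart here.

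**Figure D3:**
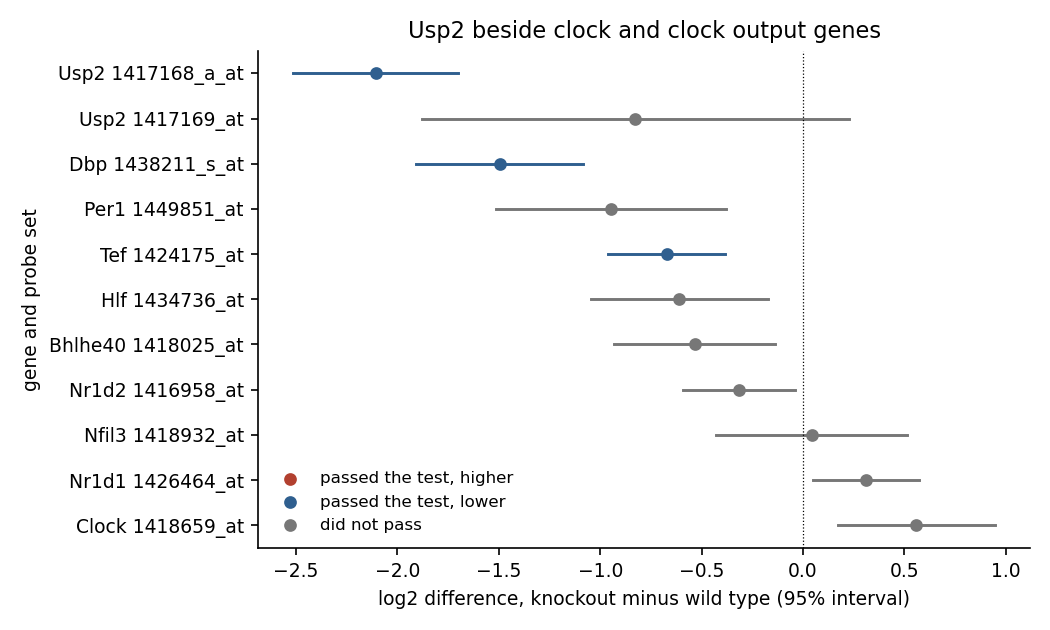
Log2 difference (knockout minus wild type) with its 95% interval for both probe sets of Usp2 and the brightest probe set of each tested clock gene. Usp2, Dbp and Tef passed the test as lower; Clock and Nr1d1 lie above 0 and did not pass.

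The promoter of Usp2 is shown because clock factors act through short motifs, the E-box CACGTG and the D-box, searched here as TTANGTAA, both on either strand. RefSeq's promoter table (GRCm38.p6) lists 1 window for Usp2, at a start inside the gene. These are the 250 bases before that start, chr9:44084670-44084919 on the + strand, with GC boxes (GGGCGG, either strand) in capitals.
Usp2: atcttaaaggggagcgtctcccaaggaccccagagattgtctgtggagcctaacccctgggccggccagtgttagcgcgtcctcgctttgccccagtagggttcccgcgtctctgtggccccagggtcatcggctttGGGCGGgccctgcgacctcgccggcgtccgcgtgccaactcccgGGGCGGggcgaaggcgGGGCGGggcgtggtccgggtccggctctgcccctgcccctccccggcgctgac
The window held 3 GC boxes and no match, on either strand, to CACGTG or TTANGTAA, which says only that these letters are not in this window. CACGTG was in 6.02% and TTANGTAA in 2.06% of all 32851 windows of this length; among the clock genes with a window, both of Tef and 1 of 2 of Per1 held CACGTG and the 1 of Per3 held TTANGTAA, while those of Dbp, Hlf, Nr1d1, Nr1d2, Clock and Nfil3 held neither. Of the 64 enzyme genes, 48 were matched to 59 windows. GGGCGG was in 76.3% of those, in 57.3% of the 7041 windows of all genes tested on the array, and in 32.7% of all windows; CACGTG was in 4 of the 59 and TTANGTAA in 1. Median GC content was 69.6% in the enzymes' windows and 59.6% in those of all tested genes.

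Usp14, which sits on the proteasome and trims ubiquitin from substrates as they are engaged, was the only enzyme called higher with all 6 arrays. On probe set 1416208_at it stood at 567.5, 703.5 and 683 in KO903, KO904 and KO905 and at 411, 383 and 394.5 in WT4, WT5 and WT6. All knockout values exceeded all wild-type values. The mean went from 396 ± 14.2 to 651 ± 73.3 (SD, n = 3 each), a 1.61-fold increase (log2 0.69 ± 0.13, adjusted p = 0.0148). Leaving out KO904 or KO905 ended the call (adjusted p = 0.0703 and 0.0645). On 1455829_at the groups were also apart, at 326, 327 and 292 against 231, 263 and 218, but the difference did not pass (log2 0.39 ± 0.14, adjusted p = 0.162). On 1437714_x_at they overlapped, with 1003, 792 and 631 against 794, 849 and 837 (log2 -0.06, adjusted p = 0.894). The mean of all 3 did not pass (log2 0.34, adjusted p = 0.109).

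The other proteasome-bound deubiquitinase in the set, Uchl5, is the only UCH enzyme. It stood at 271, 317.5 and 314 in the knockouts and at 393, 389 and 358 in wild type. Its groups were apart in the opposite direction from Usp14, and the difference did not pass (log2 -0.32 ± 0.13, adjusted p = 0.226). Psmd14, the deubiquitinase built into the proteasome lid, comes from another family and is no member of the set. Its signals were 1548, 1795 and 1674 against 1111, 1416.5 and 995 (log2 0.52 ± 0.14, adjusted p = 0.065), and it passed without WT5 (adjusted p = 0.0143) or with array weights (0.0349). The limma adjusted p also went up, to at most 0.213 with 1 array left out and 0.109 in the other settings.

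Over the whole USP class, 5 of 42 tested probe sets had an unadjusted p under 0.05 in limma (11.9%, with 17.9% over all). The 95% interval lay within a 1.5-fold change for 35 of 42 (83.3%, with 65.2% over all). Usp2 and Usp14 held the only calls of the class (4.76%, with 4.14% over all), so none of the 37 tested probe sets of the 23 other USP genes passed. Of those 37, 2 had an unadjusted p under 0.05, and 34 had an interval within a 1.5-fold change. Their log2 differences ran from -0.33 to 0.34. Usp3, which removes ubiquitin from histones, had knockout signals of 544, 603 and 523 and wild-type signals of 424, 430.0 and 489 (log2 0.30 ± 0.13, adjusted p = 0.234). Its second probe set was also apart but differed by only 0.08 on the log2 scale. Usp8, which acts on receptors in endosomes, stood at 506, 481 and 519 against 424.5, 430.5 and 399.6 (log2 0.26, adjusted p = 0.297). Usp34, a deubiquitinase of Wnt signalling, had the lowest value of these, with 396, 489 and 561 against 585, 616 and 606 (log2 -0.33 ± 0.14, adjusted p = 0.263), and 0.08 on its other probe set. Usp7 and Usp10, which act on p53 or Mdm2, had log2 differences of -0.19 and -0.17, with intervals inside a 1.5-fold change. The 4 tested probe sets of Usp9x lay between -0.12 and 0.14. Usp47, the brightest of the class, had a log2 difference of 0.17 (95% interval -0.14 to 0.47).

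The 5 tested OTU probe sets (Otud4, Otud5, Otud6b and Otud7b) had log2 differences of -0.23 to 0.11, and none passed in limma, nor did any have an unadjusted p under 0.05. Otud7b, which acts in NF-kappaB signalling, was the lowest (log2 -0.23, adjusted p = 0.572). Otud5 had 1 wide group, with wild-type signals of 127 to 355 and knockout signals of 187 to 213, so its interval reached from -0.70 to 0.51.

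Among the conjugating enzymes, 1 of 38 tested E2 probe sets passed (2.63%, with 4.14% called over all probe sets). The median log2 difference of the class was -0.06, and 31 of 38 intervals lay within a 1.5-fold change (81.6%, with 65.2% over all). The call was probe set 1423113_a_at of Ube2d3, one of the promiscuous Ube2d enzymes that serve many ligases. Its signals were 1063.5, 1395.5 and 1358 in KO903, KO904 and KO905 and 2149.6, 2184 and 1612 in WT4, WT5 and WT6. The mean fell from 1982 ± 321 to 1272 ± 182 (SD, n = 3 each), a 1.55-fold decrease (log2 -0.63 ± 0.15, adjusted p = 0.0419). The call was marginal: it ended without KO903, KO904, KO905, WT4 or WT5 (adjusted p 0.0857 to 0.146) and without an intensity trend in the variance (0.0771).

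None of the other probe sets of Ube2d3 passed the test, and their directions were mixed. Among 7 tested, 4 had log2 differences below 0 and 3 above. On 1450858_a_at the groups were also apart, with 1646, 1469 and 1583 in the knockouts and 1717.5, 2021 and 1835 in wild type, but the size was small (log2 -0.24, adjusted p = 0.279). On 1455480_s_at the knockouts stood at 1926, 2189 and 2239 and wild type at 1976, 1426 and 1712.5 (log2 0.32, adjusted p = 0.234). On 1455479_a_at they stood at 5401, 5047 and 5235 against 2558, 5471 and 3813 (log2 0.47, adjusted p = 0.269). The wild-type values there were uneven, and without WT5 the probe set passed as higher (log2 0.74, adjusted p = 0.021). The mean over all 7 probe sets was close to 0 (log2 -0.05, adjusted p = 0.858). Ube2d3 has 4 windows in the promoter table, that is 4 listed starts, the most upstream of which is shown (chr3:135437982-135438231, + strand, GC boxes in capitals) beside the single one of Usp2.
Ube2d3: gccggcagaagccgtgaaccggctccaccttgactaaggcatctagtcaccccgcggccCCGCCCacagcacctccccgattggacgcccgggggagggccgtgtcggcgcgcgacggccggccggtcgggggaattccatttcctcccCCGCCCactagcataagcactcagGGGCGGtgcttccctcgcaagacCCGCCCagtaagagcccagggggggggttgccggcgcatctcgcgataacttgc
This window held 4 GC boxes and neither clock motif. Whether the probe sets read different transcripts of Ube2d3 was not examined.

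None of the 4 tested probe sets of the close relative Ube2d2a passed. The lowest, 1416476_a_at, stood at 509.7, 398 and 426 in the knockouts and 680.3, 483 and 556 in wild type (log2 -0.35, 95% interval -0.69 to -0.01, adjusted p = 0.269), and Ube2d1 had a log2 difference of 0.04. Grouped after their values were seen, the 12 tested Ube2d probe sets, 7 of them of Ube2d3, had a median of -0.12. Their 1 lower call (8.33%, with 4.14% called over all probe sets) is the Ube2d3 call given above. At an unadjusted p under 0.05 there were 5 (41.7%, with 17.9% over all), of which 2, both of Ube2d3, were above 0. All but 1416476_a_at were of Ube2d3, so these probe sets do not speak for separate genes. Ube2a and Ube2b, the E2 enzymes of histone ubiquitination and DNA damage tolerance, lay between -0.06 and 0.07 on 4 probe sets, all with intervals inside a 1.5-fold change. Ube2n and its partners Ube2v1 and Ube2v2, which build the chains used in signalling, lay between -0.19 and 0.23. Of these only Ube2v1 had groups apart, at 553, 466 and 454 against 401, 434.5 and 414 (adjusted p = 0.401). Ube2g1, Ube2g2, Ube2j1 and Ube2j2 act in the disposal of proteins from the endoplasmic reticulum. Ube2g2 stood at 291, 208 and 257 in the knockouts and 470.2, 295 and 351 in wild type (log2 -0.52 ± 0.19, adjusted p = 0.166), and the other 4 probe sets of this group did not pass either. Ube2h, which works with the CTLH ligase complex, had groups apart at 1049, 1072 and 1078 against 1003, 1047 and 985. The size was only 0.08 on the log2 scale (95% interval -0.16 to 0.31). Ube2s, which works with the mitotic ligase APC/C, had a log2 difference of -0.17 (adjusted p = 0.687), and markers of dividing cells summed to 819.7 to 1314 in the knockouts and 837 to 958 in wild type. Most of that sum was Pcna (log2 0.05). Top2a, the other tested marker, had groups apart at 110, 136.5 and 155 against 91.8, 53.9 and 89.6 (log2 0.68, limma adjusted p = 0.116). Its wild-type mean of 78.4 lay under the minimum signal of 100, which it met over all arrays through the knockouts.

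The enzymes for NEDD8 and ISG15 did not pass. NEDD8 activates cullin ligases, and Uba3 is the catalytic subunit of its E1 and Ube2f one of its E2 enzymes. The 7 probe sets of these genes had log2 differences of -0.29 to 0.23, with none apart between groups and none at an unadjusted p under 0.05. Uba3 was the only tested gene of the E1 class, and its 3 probe sets gave -0.29, 0.11 and 0.23. ISG15 is an interferon-induced modifier, Ube2l6 its E2 and Usp18 its protease. Ube2l6 stood at 181, 163 and 192 in the knockouts and 148.5, 132 and 126 in wild type, apart but not past the test (log2 0.36 ± 0.15, adjusted p = 0.254). Usp18 overlapped, at 349.6, 237 and 354 against 306.5, 138 and 322.5 (log2 0.34, adjusted p = 0.579). Among 6 tested interferon-stimulated genes, which include both, none passed in limma (1 at an unadjusted p under 0.05, Ube2l6 itself). The median log2 difference with both included was 0.22. By their brightest probe sets the others were Ifit1 (0.01), Ifit3 (0.09), Irf7 (-0.003) and Rsad2 (0.54). Both enzymes are also made by immune cells, whose marker sums are given above.

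None of the 6 Ube3 and 8 cullin probe sets passed in limma, with 4.14% called over all probe sets. In each class 1 had an unadjusted p under 0.05 (16.7% and 12.5%, with 17.9% over all). In the Ube3 class, Ube3b was the highest, with 639.8, 546 and 433 in KO903, KO904 and KO905 and 379.7, 433 and 365 in WT4, WT5 and WT6. KO905 exceeded WT5 only narrowly (433.4 and 432.8), and the log2 difference was 0.43 ± 0.16 (adjusted p = 0.172). Ube3a, the ligase lost in Angelman syndrome, had groups apart on 1416680_at at 457, 504 and 527 against 566, 586 and 623.5 (log2 -0.25, adjusted p = 0.316) and overlapping on its other tested probe sets (-0.19 and 0.02). Ube3c, a ligase that extends chains at the proteasome, had log2 differences of -0.04 and 0.03.

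Cullins are the scaffolds of the largest ligase group. Cul4a, the scaffold of ligases that act in DNA repair and replication, came nearest to a call. It stood at 213, 280.3 and 315 in the knockouts and 369, 378 and 488 in wild type. The groups were apart, with a lower knockout mean (log2 -0.59 ± 0.17, 95% interval -0.97 to -0.21), but the adjusted p was 0.0864. Its paralog Cul4b had log2 differences of 0.01 and -0.08 on overlapping groups. Cul3, the scaffold that takes NRF2 for degradation with Keap1, had groups apart on 1422794_at at 436, 444 and 411 against 476.5, 485 and 489. That difference was small (log2 -0.16, adjusted p = 0.523), and another Cul3 probe set gave 0.18. Cul1 (0.12) and Cul2 (0.02) had intervals inside a 1.5-fold change.

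Agreement between probe sets of a gene limits how far 1 call speaks for a gene. Of 62 tested genes, 24 had several tested probe sets, and 19 of these had log2 differences of both signs. The share over all genes was not counted. Several of the 19 lay near 0 throughout, such as Ube2a (-0.03 and 0.0005) and Usp19 (-0.01 and 0.04), where both signs say little about agreement. In 4 genes the probe sets spread over more than 0.5 on the log2 scale: Usp2 (1.28), Ube2d3 (1.10), Usp14 (0.75) and Uba3 (0.52). All 3 genes with a call are among them. A called probe set lies far from 0 by selection, so a wide spread in these genes was likely beforehand. With the mean of a gene's probe sets tested across 6604 genes, 1 of the 62 enzymes passed, Usp2, against 4.91% of all genes. In limma, Usp2, Usp14 and Ube2d3 held all 3 calls, so none of the 91 tested probe sets of the remaining 59 genes had passed. The log2 differences of these 91 ran from -0.59 to 0.43, and 8 had an unadjusted p under 0.05. The 8 untested probe sets had mean signals under 100: 1 each of Uba1y, Ube2k, Ube2w, Ube3a, Cul2 and Usp22 and 2 of Usp9x. Uba1y and Usp22 had no other.

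Other genes of these pathways were read from 8 lists, each gene by its brightest tested probe set. On these probe sets 2 genes passed, Nedd4l and Brca1, both higher in the knockout. Over all tested probe sets, 2.05% passed as higher. Nedd4l, a HECT ligase that removes ion channels from the membrane, stood at 442, 527.5 and 618.5 in KO903, KO904 and KO905 and 298.5, 209.9 and 184 in WT4, WT5 and WT6. All knockout values exceeded all wild-type values, with means of 529 ± 88.2 and 231 ± 60.1 (SD, n = 3 each; log2 1.16 ± 0.19, adjusted p = 0.00734). It was the only call among 11 tested HECT ligases outside the Ube3 genes, whose median was 0.00. Among 37 RING and U-box ligases only Brca1, a DNA repair ligase, passed, with 128, 161 and 165 against 77.8, 47.6 and 67.2 (log2 1.07 ± 0.20, adjusted p = 0.0152); the call ended without KO904 or KO905 (up to 0.069). Its wild-type mean of 64.2 lay under the minimum signal of 100, which it met over all arrays through the knockouts; with no minimum the adjusted p was 0.0132. Its other probe set, not tested, had means of 95.3 in both groups. The p53 ligase gene Mdm2 was next (log2 0.64, adjusted p = 0.0566).

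On the brightest probe sets the remaining lists had no call in limma. Over all tested probe sets, 54.6% of log2 differences were above 0 and 17.9% had an unadjusted p under 0.05. For partners of cullins, 27 tested genes had a median of -0.03 (2 at an unadjusted p under 0.05), with Socs2, an adaptor of growth hormone signalling, having the smallest p (log2 -0.49, adjusted p = 0.263). Among 9 partners and proteases of SUMO and NEDD8 (2 at an unadjusted p under 0.05), Ranbp2 had the smallest (log2 -0.48, adjusted p = 0.162). Of 10 ubiquitin-like modifiers 9 were above 0, with a median of 0.10 (1 at an unadjusted p under 0.05), and Sumo3 had the smallest p (log2 0.40, adjusted p = 0.231). For 11 deubiquitinases of other families the median was -0.15, while the 3 at an unadjusted p under 0.05 were all above 0: Psmd14, given above, Stambp (0.44, adjusted p = 0.0937) and Stambpl1 (0.59, adjusted p = 0.145). A second probe set of Stambp had a log2 difference of 0.17 (limma adjusted p = 0.736). The shuttle factors and the Vcp segregase, which carry ubiquitinated proteins to the proteasome, were above 0 in 12 of 16 cases, with a median of 0.18 (6 at an unadjusted p under 0.05, of which Tollip was below 0). Vcp itself stood at 3641, 4691 and 4314 against 3247.5, 3401 and 3013, apart but not past the test (log2 0.38 ± 0.11, adjusted p = 0.0963). Of the ubiquitin precursor list only Fau, a fusion of a ubiquitin-like protein with a ribosomal protein, was analysed (log2 -0.05).

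**Figure D4:**
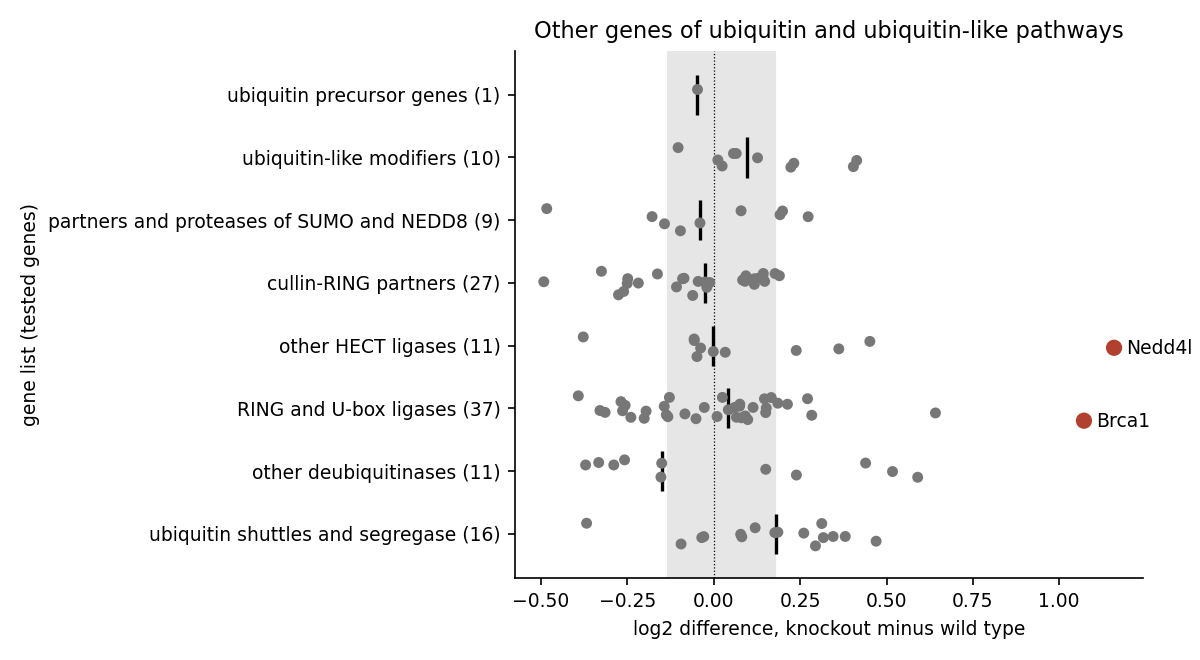
Log2 difference (knockout minus wild type) of the other pathway genes by list, with the number tested. Points are genes, black lines list medians and the grey band the middle 50% of all tested probe sets; Nedd4l (1.16) and Brca1 (1.07) passed the test, and the shuttle list has the highest median at 0.18.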

How the data were processed

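Total liver RNA of 6 mouse samples was read on 1 Affymetrix array each. The deposited intensity values are linear MAS 5.0 signals; per the labels, 1 factor per array set the average to 350, and MAS 5.0 also stands in the submitters' processing notes. What decided which 11811 probe sets the table holds is unknown here. Groups came from sample titles.

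On log2(signal + 16), without 33 control probe sets and those with a mean signal under 100, limma (lmFit, eBayes with an intensity trend, two-sided, Benjamini-Hochberg over 10620 probe sets) compared the groups; errors are moderated standard errors. The smallest p an exact permutation of 3 against 3 samples allows is 0.1. The script was tested on simulated data. The number of arrays limits precision. At most 0.0847% of values were identical between arrays.

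Symbols came from the platform annotation. Promoters came from RefSeq (GRCm38.p6). Named were all called enzymes and their other probe sets, the 12 smallest p, the brightest probe set and smallest p of each class, NEDD8 and ISG15 enzymes, and the leading gene of each list; other probe sets, and the grouping by role, were added after their values were seen. Enzymes and lists were chosen with earlier results of these data known. Further marker lists had no call: 4 stellate and matrix genes (median log2 difference 0.02), 2 lymphocyte genes (0.32) and 2 genes of dividing cells (0.37). Of the sex-linked list only Xist had a probe set, at 3617 to 4284 in the knockouts and 2942.5 to 4048 in wild type (log2 0.17, limma adjusted p = 0.534). Versions were R 4.3.3, limma 3.58.1, Python 3.11.15 and matplotlib 3.10.9.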

Additional observations from a re-analysis of the deposited data

How the results depend on the processing

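Across 17 planned settings and 1 added after seeing the data, 955 values were compared, and 894 were classed as the same. For a gene's value this meant the same direction and call. For a count it meant staying within a set ratio, and for a median moving by no more than its SD between replicates. A median could therefore change sign and still be classed as the same, as those of USP and E1 did. Of the rest, 31 counts or medians moved past these limits, 13 values lost a call, 3 gained one and 14 without a call changed sign. The count of all calls (440) was 786 at an adjusted p of 0.10 and 175 (without KO904) to 469 (without WT5) with 1 array left out. Enzymes called higher ranged from 0 to 2 and lower from 1 to 2 with 1 array left out, and lower was 1 without an intensity trend, where the E2 class had 0 calls. E2 calls ranged from 0 to 1 and USP calls from 1 to 2 with 1 array left out; with the brightest probe set standing for each gene both classes had 0, since Usp2, Usp14 and Ube2d3 are then read by other probe sets. At 0.10 the cullins had 1 call, Cul4a.

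With 1 array left out, median log2 differences ranged from -0.039 to 0.014 for all enzymes, -0.071 to 0.0054 for E2, -0.11 to 0.026 for Ube3 ligases, -0.093 to 0.051 for cullins, -0.041 to 0.047 for USP, -0.018 to 0.26 for E1, -0.19 to -0.027 for OTU and -0.36 to -0.25 for UCH. Signs turned for Cul2 (-0.0098 with arrays centred on their medians, -0.042 to 0.12 with 1 array left out) and Ube3c 1426882_at (0.021 with array weights, -0.18 to 0.054). With 1 array left out, they also turned for Ube2f 1432426_a_at (-0.054 to 0.27), Ube2d3 1423114_at (-0.029 to 0.17), Ube2d3 1450859_s_at (-0.40 to 0.011), Usp14 1437714_x_at (-0.22 to 0.11), Usp18 (-0.026 to 0.54) and Uba3 1435164_s_at (-0.018 to 0.26). Where not stated, the cause was not tested. No paired analysis was possible because the groups share no sample numbers. Centring moved the median over all probe sets from 0.03 to 0.00.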
